A study of Bos taurus with 8 samples.

Results

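Of the 8 dominant bovine follicles on the arrays, 3 carried a clear signal of CYP17A1, the enzyme with which the theca makes androgens, and they were set against the other 5. The groups were chosen by the measured level of that gene: each follicle was read as a single channel, its background-subtracted log2 intensity at the CYP17A1 probe was averaged over its 2 arrays, and the 3 highest follicles formed the group with CYP17A1 signal. These were the atretic follicle of pair 1 and the growing follicles of pairs 2 and 3. The other 5 comprised 3 atretic follicles (of pairs 2, 3 and 4) and 2 growing ones (of pairs 1 and 4). All cells were labelled granulosa cells of Holstein cattle, scraped from single follicles of slaughterhouse ovaries whose cycle stage was unknown, and no treatment was given. The growing or atretic phase had been assigned from the DNA content of the cells by flow cytometry. An atretic and a growing follicle of each pair shared an array, and the dyes were exchanged on another, which gave 8 arrays on 3 slides. Pairs were read from the area numbers in the labels and, for the array of pair 4 that lay alone on the third slide, from a number in its title. The ratios of the 2 arrays of pair 4, turned the same way, correlated at 0.62, against 0.72 to 0.78 in the other pairs. Each pair from 1 to 3 held 1 follicle with CYP17A1 signal and 1 without, and pair 4 held none with it.

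The wall of a follicle has 2 endocrine layers with a basal lamina between them. Theca interna cells outside the lamina respond to LH and turn cholesterol into androgen through STAR, CYP11A1, HSD3B1 and CYP17A1, whereas granulosa cells inside it turn androgen into oestradiol through CYP19A1 under FSH. Granulosa cells of healthy cattle follicles are known to hold very little CYP17A1 transcript, which is why the gene is used as a theca marker. Around the theca lies the theca externa, a sheath of fibroblasts that make collagens and small proteoglycans, among them COL1A2 and lumican (LUM).

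CYP17A1 was read by 1 probe. Its background-subtracted log2 intensity was 9.38, 9.19 and 9.31 in the 3 follicles with signal, against 7.88, 7.75, 7.63, 8.16 and 7.63 in the other 5, each group listed as above. Thus the lowest follicle inside the group, the growing one of pair 2 at 9.19, stood 1.03 above the highest outside it, the growing one of pair 1 at 8.16. The probe exceeded the negative control spots on 6 of 6 readings with signal. It also did so on both arrays of the growing follicle of pair 1 and on 1 of 2 arrays for 3 of the remaining follicles, so "without signal" means a low level and not its absence. These values chose the groups and were not tested. The study also measured CYP17A1 by qRT-PCR, to look for theca cells. It reports similar levels in most samples and a higher one in 1 atretic sample, which it left out of its analysis. The labels do not say whether that sample is among these follicles. All levels below are normalised log2 intensities of a follicle, averaged over its 2 arrays, and are given follicle by follicle in that same listing, with atretic follicles before growing ones. A level compares follicles at 1 probe and not 1 gene with another.

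The granulosa label was checked at genes that mark these cells. Of 16 such genes, 13 exceeded the negative controls on all 6 readings with CYP17A1 signal and all 10 without, among them FSHR, AMH, INHA, INHBA and CYP19A1. The exceptions were FOXL2, above them on 6 of 6 and 8 of 10 readings, ESR2 (4 of 6 and 7 of 10) and WT1 (3 of 6 and 6 of 10). CYP19A1, the aromatase, was 15.91, 7.42 and 15.76 in the follicles with CYP17A1 signal and 8.80, 11.77, 15.32, 11.43 and 14.66 in the others, so the growing follicle of pair 2 had the lowest aromatase level of all 8. That follicle was also lowest in the mean level of the 16 genes, 12.07, 10.30 and 12.29, against 10.71, 11.14, 11.76, 10.99 and 11.91. FSHR was 9.50, 7.85 and 11.35, against 9.65, 10.39, 10.02, 10.12 and 10.02. AMH, in contrast, was lowest in the atretic follicle of pair 2 (9.41). Between 50.7% and 72.1% of probes per reading exceeded the negative controls with CYP17A1 signal, and 48.4% to 68.2% without.

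The question was which transcripts follow the theca marker. After Benjamini-Hochberg adjustment over 36292 probes in limma, 1 probe passed a threshold of 0.05, which is 0.00276% of those tested, and it has no gene name in the annotation. This probe, EMBV3_28366, measured 9.93, 10.11 and 9.16 in follicles with CYP17A1 signal, against 7.06, 6.77, 7.05, 7.02 and 7.08 in the others (adjusted p = 0.028, limma). The other follicles were not well above background there on any of 10 readings, so the difference is a bound, at least 5.27-fold, taken against the negative control limit of each array. The call was lost with any of 6 follicles left out, with adjusted p up to 0.365 (limma), and kept without the growing follicle of pair 3 or of pair 4. None of 13624 named genes passed, and the smallest adjusted p of a named gene was 0.125. Without adjustment, 1985 probes had a p under 0.05, where 1815 would be expected if no probe differed.

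The study selected genes by a fold of at least 1.5 with an unadjusted p under 0.05, which controls no error rate, and this threshold is used below to describe genes. It was passed by 331 genes with higher levels in the follicles with CYP17A1 signal (2.43% of those tested) and 338 with lower levels (2.48%). The counts for gene lists below are to be read against these shares. Higher genes made up 49.5% of the genes past the threshold, but 77.9% when channels were only centred on their medians without loess. All 3 follicles with CYP17A1 signal lay above all 5 others in 247 genes (1.81% of all) and below them in 267 (1.96%). If no gene followed the split, the 56 ways to choose 3 of 8 follicles would give a share of 0.0179 each way. Both shares are near that value, so lack of overlap is used below only to describe genes. With the growing follicle of pair 4 left out, 593 genes were higher and 681 lower, and without the atretic follicle of pair 3 there were 225 lower genes. Of the 331 higher genes, 93 passed with each of the 8 follicles left out in turn, and so did 93 of the 338 lower ones.

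Of 10 measured theca interna genes besides CYP17A1, 3 passed the study's threshold upward (INSL3, STAR and SCARB1) and 1 downward (CYB5A), none of them after adjustment. The mean was higher in the follicles with CYP17A1 signal for 9 of the 10 (all genes, 50.1%), with a median difference of 0.91 (all genes, 0.00041). SCARB1 and, by a small margin, NR5A1 lay above all other follicles, CYB5A lay below them, and the rest of the list overlapped between the groups. INSL3, a peptide hormone that theca cells secrete and the most theca-restricted gene after CYP17A1, was 8.61, 8.61 and 9.47 in follicles with CYP17A1 signal, against 8.33, 7.91, 8.29, 7.87 and 8.64 in the others. The growing follicle of pair 4, without CYP17A1 signal, thus reached the INSL3 level of 2 of the 3 follicles with it. The difference was 0.69 ± 0.26 (SE, log2), with an adjusted p of 0.893 in limma, and the gene no longer passed the study's threshold without the atretic follicle of pair 3, the growing one of pair 1 or the growing one of pair 3. In bulk cells, more cells of a type and more RNA per cell cannot be told apart.

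**Figure D1:**
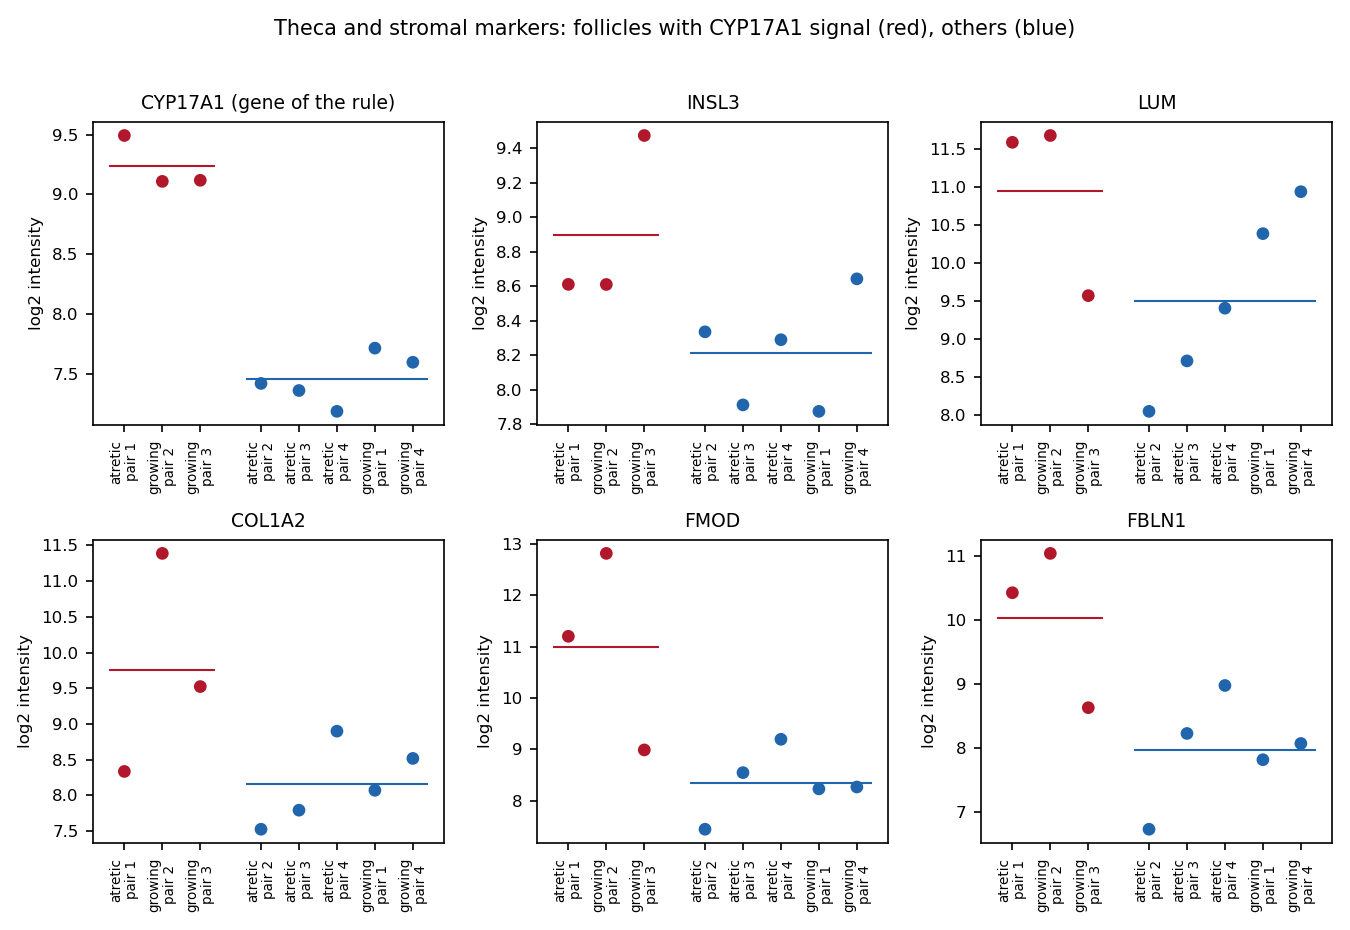
Normalised log2 intensity (vertical axes, a separate scale per gene) of CYP17A1, INSL3, LUM, COL1A2, FMOD and FBLN1 in each follicle, those with CYP17A1 signal in red on the left and the other 5 in blue, with horizontal lines at the group means. CYP17A1 separates the groups because it chose them, while INSL3, LUM, COL1A2, FMOD and FBLN1 overlap, each with at least 1 of the other follicles at or above the lowest red point.

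STAR, which brings cholesterol into mitochondria, was 13.98, 11.64 and 11.19 in the follicles with CYP17A1 signal and 10.04, 9.32, 11.91, 9.70 and 11.06 in the others. The atretic follicle of pair 4 exceeded 2 of the 3 follicles with signal. All 3 STAR probes passed the study's threshold, with differences from 0.96 to 2.02 and a smallest adjusted p of 0.889 (limma), but the brightest lost it without any 1 of the atretic follicles of pairs 1 to 3 or the growing follicle of pair 1. HSD3B1, which makes progesterone, was 14.88, 10.84 and 12.70 with CYP17A1 signal, against 7.83, 10.97, 13.43, 10.08 and 11.99 without, and CYP11A1, the side-chain cleavage enzyme, was 15.34, 11.76 and 15.16, against 11.05, 11.38, 12.56, 11.87 and 15.16. Neither passed. These genes and the LH receptor LHCGR are also expressed by granulosa cells of large follicles. LHCGR was 13.05, 6.76 and 10.51 with CYP17A1 signal, so its level in the growing follicle of pair 2 lay below all others, which were 7.70, 8.06, 11.25, 8.22 and 9.65.

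SCARB1, the receptor that takes up cholesterol from high-density lipoprotein, separated the groups. It was 11.41, 15.04 and 10.84 in follicles with CYP17A1 signal, against 10.23, 9.79, 10.53, 9.20 and 10.20 in the others, a difference of 2.44 ± 0.86 (SE, log2; adjusted p = 0.889, limma). Without the growing follicle of pair 2 it was 1.14. CYB5A, the cytochrome b5 that helps CYP17A1 make androgen, ran the other way at its brightest probe, with 14.16, 13.88 and 13.84 in follicles with CYP17A1 signal, against 14.74, 15.35, 14.51, 14.90 and 14.23 in the others. It did not overlap between the groups and differed by -0.78 ± 0.24 (SE, log2), with an adjusted p of 0.883 in limma. Both remaining CYB5A probes overlapped, with differences of -0.07 and -0.10.

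The stromal markers followed CYP17A1 only in part. LUM, a collagen-binding proteoglycan, was 11.59, 11.68 and 9.58 in follicles with CYP17A1 signal, against 8.05, 8.72, 9.41, 10.39 and 10.94 in the others, and both growing follicles without signal exceeded the growing follicle of pair 3. The difference was 1.45 ± 0.74 (SE, log2), with an adjusted p of 0.92 in limma and p = 0.161 in an exact two-sided permutation test over the 56 ways to choose 3 of 8 follicles, whose smallest possible p is 0.0179. With 1 follicle left out, LUM passed the study's threshold without the growing follicle of pair 3 (2.14) or of pair 4 (1.81), and it also passed in the ratios within the arrays of pairs 1 to 3 (1.90), as in the other fits by pair. COL1A2, a chain of type I collagen, was 8.33, 11.39 and 9.52 with CYP17A1 signal, against 7.52, 7.79, 8.90, 8.07 and 8.52 without. Here the atretic follicle of pair 1, which had the most CYP17A1, lay below 2 of the other follicles. COL1A2 differed by 1.59 ± 0.62 (SE, log2), with an adjusted p of 0.893 in limma and an exact permutation p of 0.0536, and by 0.77 without the growing follicle of pair 2. It lost the study's threshold without that follicle, without the growing follicle of pair 1 or 3, and without the atretic follicle of pair 2 or 3.

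Across the 21 measured genes of stroma and theca externa the median difference was 0.31 (all genes, 0.00041), 2 passed upward and 1 downward, and without the growing follicle of pair 2 the median was 0.13. The largest difference was that of FBLN1, a glycoprotein of elastic fibres. Of 8 small leucine-rich proteoglycans, with a median difference of 0.43, FMOD (fibromodulin), which binds collagen fibrils, passed upward and none downward. FBLN1 was 10.42, 11.03 and 8.62 with CYP17A1 signal, against 6.72, 8.22, 8.97, 7.81 and 8.06 in the other follicles, a difference of 2.07 ± 0.61 (SE; adjusted p = 0.883, limma). FMOD was 11.20, 12.81 and 8.99, against 7.44, 8.55, 9.20, 8.23 and 8.27, a difference of 2.66 ± 0.76 (SE; adjusted p = 0.883, limma). For both genes the atretic follicle of pair 1 and the growing follicle of pair 2 stood far above the rest, and the growing follicle of pair 3 lay within the range of the others. Both passed the study's threshold with each follicle left out.

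Other fibroblast genes were less regular. DCN (decorin), a further proteoglycan, was 11.44, 10.93 and 8.46 with CYP17A1 signal, against 9.97, 8.01, 8.64, 9.59 and 7.61 without, and did not pass. POSTN (periostin) was 7.87, 11.59 and 7.89 with CYP17A1 signal, against 7.58 to 8.20 without, so only the growing follicle of pair 2 stood out. COL1A1, the partner chain of COL1A2, was 7.91, 9.37 and 8.05, against 7.80, 7.91, 7.97, 8.23 and 8.05. COL3A1 (type III collagen) was 9.46, 10.01 and 10.65, against 8.07, 8.44, 10.30, 7.32 and 9.39. COL6A2 (type VI collagen) passed downward with a difference of -0.93 ± 0.37 (SE; adjusted p = 0.893, limma), and PDGFRA, a receptor of fibroblast lineages, was 8.94, 11.60 and 9.35 with CYP17A1 signal and 11.73, 11.49, 9.91, 10.01 and 8.18 without.

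**Figure D2:**
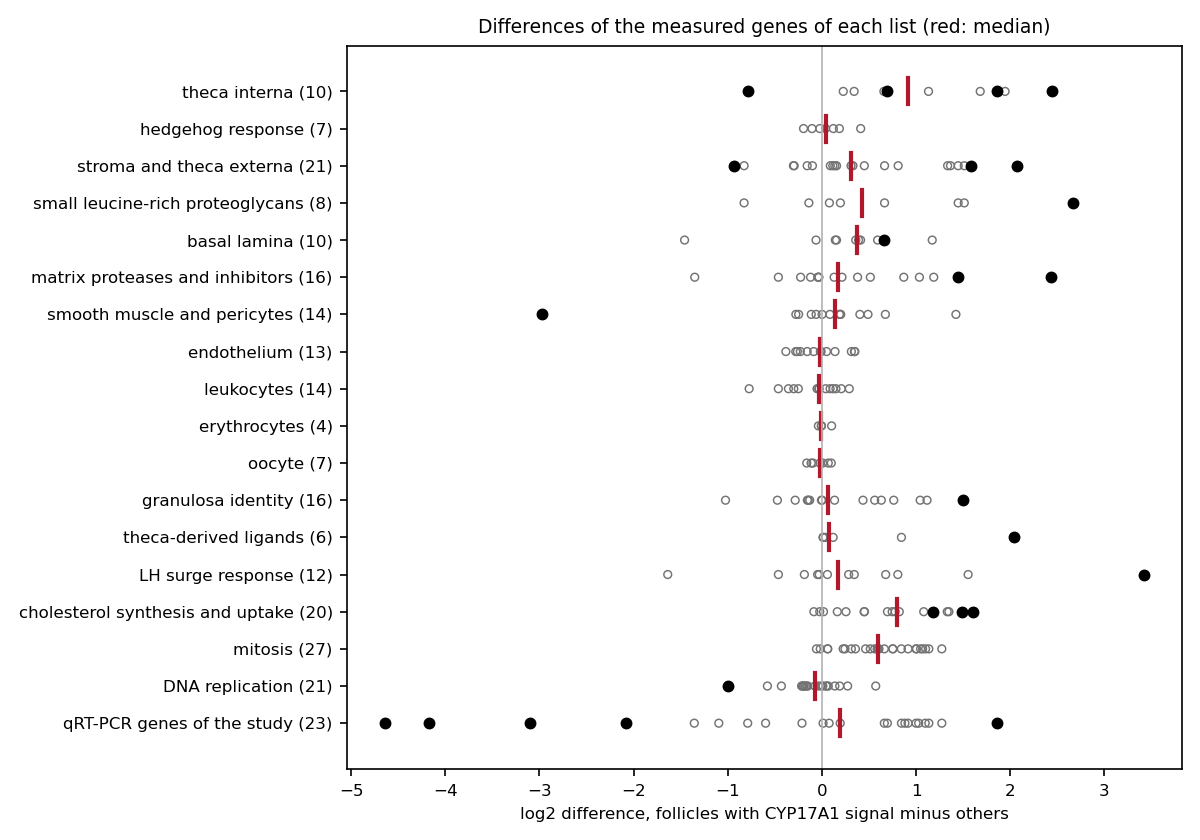
Log2 difference between the 3 follicles with CYP17A1 signal and the 5 others (horizontal axis) for every measured gene of each gene list, with the number of genes in brackets, filled points for genes past the study's threshold and a red bar at the median. The medians of theca interna (0.91), cholesterol synthesis and uptake (0.80) and mitosis (0.60) lie farthest from 0, and those of endothelium, leukocytes, erythrocytes and oocyte between -0.03 and -0.01.

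In 2 further lists, of the matrix between and around the layers, the genes that passed were all higher. Over all genes tested 2.43% passed upward and 2.48% downward. Of 10 basal lamina genes, with a median difference of 0.37, LAMC1 (a laminin chain) passed upward at its brightest probe, with a difference of 0.66 ± 0.27 (SE; adjusted p = 0.904, limma), while both its other probes had a lower mean. Of 16 matrix proteases and their inhibitors, with a median of 0.17, 2 passed upward. PLAT, the tissue plasminogen activator, was 13.85, 15.07 and 10.86 with CYP17A1 signal, against 11.10, 10.57, 12.92, 9.87 and 9.69 without. TIMP2, an inhibitor of metalloproteinases, was 15.40, 15.98 and 14.10, against 13.10, 13.67, 15.18, 12.71 and 13.91. Both overlapped (adjusted p = 0.904 for PLAT and 0.902 for TIMP2, limma), with the atretic follicle of pair 4 high among the others, and both calls were lost with any of 6 follicles left out.

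Markers of other cells that scraping could collect were near the limit for most genes, but some had clear levels in single follicles. The mean level of 13 endothelial markers was 7.40 to 7.79 in follicles with CYP17A1 signal and 7.37 to 7.77 in the others, that of 14 leukocyte markers 7.35 to 7.62 and 7.26 to 7.96, and that of 4 erythrocyte markers 7.27 to 7.44 and 7.25 to 7.47. The negative control limit was 7.14 to 7.47 for readings with CYP17A1 signal and 7.20 to 7.51 for the others. KDR, a receptor of vascular endothelial growth factor, was 6.80, 11.03 and 7.11 with CYP17A1 signal, against 9.55, 9.36, 7.51, 10.41 and 6.65 without. The macrophage gene C1QB was 8.03, 8.04 and 7.77, against 9.73, 9.61, 8.01, 8.95 and 7.29, and PTPRC, carried by all leukocytes, was 8.88, 8.49 and 8.18, against 8.16, 8.44, 7.97, 9.73 and 8.44. CD68 and TYROBP reached 9.22 in the atretic follicle of pair 2 and 9.00 in that of pair 3. The groups overlapped for each of these genes, and the part of such cells in the results was not tested. None of these markers passed the study's threshold, and HBB (haemoglobin beta) exceeded the limit on 2 of 6 readings with CYP17A1 signal and 1 of 10 without. None of 7 oocyte genes passed either. Of the 14 smooth muscle and pericyte genes, 7 exceeded the limit on all readings, while TAGLN and DES were near it. ACTA2, smooth muscle actin, was 11.92, 12.08 and 12.48 with CYP17A1 signal, against 12.25, 11.91, 12.34, 12.21 and 12.66 without. The 1 gene of this list to pass was MYH11, smooth muscle myosin, at 8.40, 7.60 and 7.60 with CYP17A1 signal, against 12.28, 11.88, 9.95, 12.17 and 7.93 in the others (difference -2.97 ± 0.97, SE; adjusted p = 0.883, limma). Its level was low in the growing follicle of pair 4 as well, so the groups overlapped.

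Ligands that theca cells send to granulosa cells were measured at 6 genes. IGF2, the insulin-like growth factor that the bovine theca makes, was 12.16, 14.33 and 13.97 in follicles with CYP17A1 signal and 11.52, 10.74, 13.08, 11.19 and 10.71 in the others. The atretic follicle of pair 4 exceeded the atretic follicle of pair 1, and the difference was 2.04 ± 0.65 (SE; adjusted p = 0.883, limma). It passed the study's threshold at 2 of 3 probes and lost it without the growing follicle of pair 2 or 3. BMP4 was 10.25, 7.45 and 8.74, against 7.80, 7.83, 8.72, 7.76 and 7.72, and did not pass. In the opposite direction of signalling, granulosa cells send hedgehog ligand to the theca, and none of 7 measured genes of the hedgehog response passed. GLI1, the usual readout of the pathway, exceeded the negative controls on 1 of 6 readings with CYP17A1 signal and 4 of 10 without. PTCH1 and SMO exceeded them on 6 of 6 and 10 of 10 readings, with differences of -0.19 and 0.41 at their brightest probes.

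The 12 genes with the largest positive differences that did not overlap between the groups, and whose ratio had the same sign within the arrays of pairs 1 to 3, were led by TNFAIP6, a hyaluronan-binding protein of the cumulus matrix that the LH surge induces. TNFAIP6 was 15.90, 15.85 and 14.27 in follicles with CYP17A1 signal, against 10.03, 10.73, 12.62, 12.28 and 13.92 in the others, a difference of 3.42 ± 0.85 (SE; adjusted p = 0.883, limma). It was the only 1 of 12 genes of the LH surge response to pass: PTX3 was 8.20, 11.60 and 7.71, against 8.08, 7.64, 7.41, 7.49 and 7.46, and PTGS2 and HAS2 reached 8.01 and 7.75 in the growing follicle of pair 2 and were near the limit in the rest. RNF128, a ubiquitin ligase, was 11.41, 11.97 and 11.05 with CYP17A1 signal and 7.73, 7.95, 9.26, 8.06 and 10.23 without. FADS2, which desaturates fatty acids, was 13.37, 15.62 and 13.71, against 10.76, 11.08, 12.19, 10.35 and 12.71. The differences were 2.83 and 2.82. SLC39A8 (a zinc and manganese importer), CRISPLD2 (a secreted glycoprotein), LMO7, RBM47, CCDC69, ADIPOR2 (an adiponectin receptor) and CYP51A1 had differences from 1.61 to 2.76 at their brightest probes. Both further probes of CRISPLD2 (1.99 and 0.25) and of CYP51A1 (0.60 and 0.77) overlapped between the groups, while the dimmer probe of RNF128 (0.82) did not. PSAT1, an enzyme of serine synthesis, had the smallest adjusted p of these genes and was 11.68, 11.50 and 10.80 in follicles with CYP17A1 signal, against 9.51, 9.25, 9.03, 8.56 and 9.28 in the others (difference 2.20 ± 0.26, SE; adjusted p = 0.169, limma).

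**Figure D3:**
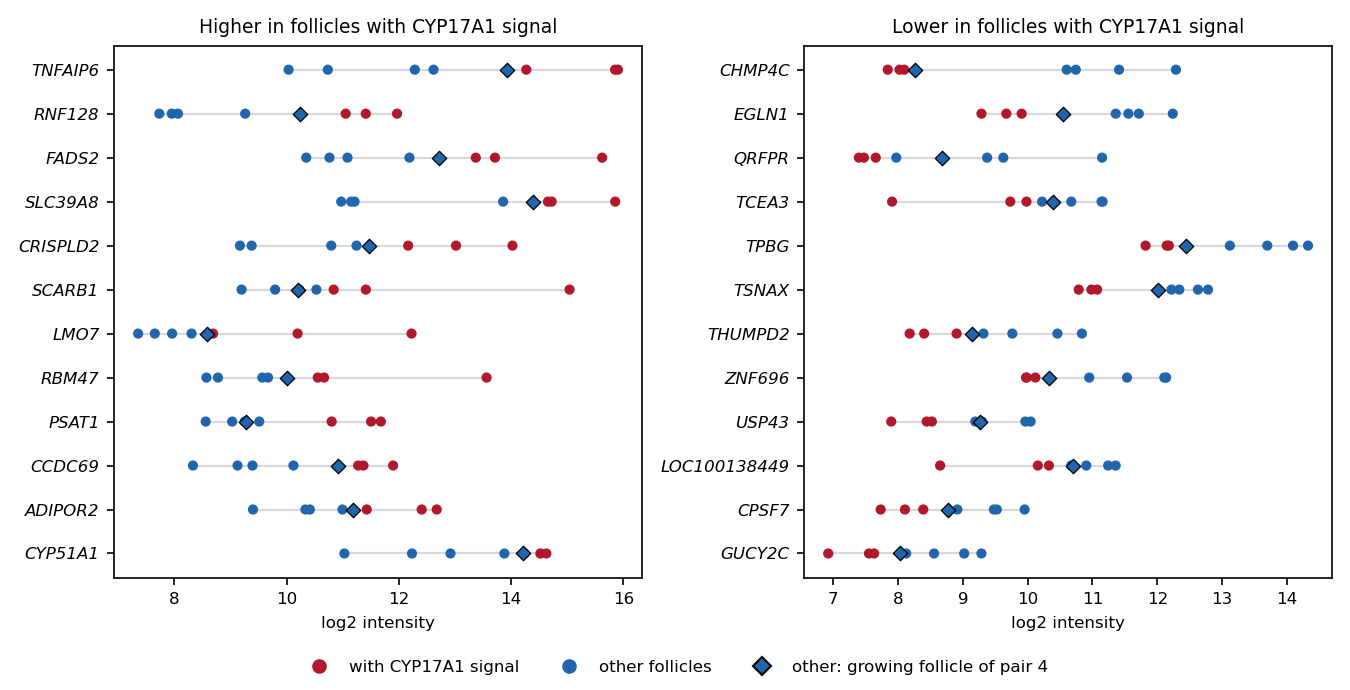
Normalised log2 intensity (horizontal axes) of the 12 named genes with the largest positive and the 12 with the largest negative differences that do not overlap, with red points for the 3 follicles with CYP17A1 signal, blue points for the others and a diamond for the growing follicle of pair 4. The diamond is the blue point nearest to the red ones in 10 of the 12 genes on the left and 8 of the 12 on the right.

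On the lower side the same rule named CHMP4C, a subunit of the complex that severs membranes at the end of cell division. It was 8.10, 7.84 and 8.02 with CYP17A1 signal, against 12.29, 11.41, 10.74, 10.60 and 8.26 in the others, so the growing follicle of pair 4 lay close to the follicles with CYP17A1 signal and the other 4 far above (difference -2.67 ± 0.76, SE; adjusted p = 0.883, limma). EGLN1, the oxygen-sensing hydroxylase that marks hypoxia-inducible factor for degradation, was 9.91, 9.29 and 9.67, against 12.24, 11.36, 11.72, 11.55 and 10.54, a difference of -1.86 ± 0.34 (SE). Its other probe differed by -1.41 and overlapped, with the growing follicle of pair 4 at 9.29. TSNAX, the partner of the RNA-binding protein translin, was 11.07, 10.79 and 10.98, against 12.63, 12.78, 12.22, 12.34 and 12.01 (difference -1.45 ± 0.19, SE; adjusted p = 0.287, limma), and its other probe, near the limit, differed by -0.14. QRFPR (a neuropeptide receptor), TCEA3, TPBG (an inhibitor of WNT signalling), THUMPD2, ZNF696, USP43, LOC100138449, CPSF7 (a factor of RNA 3' end processing) and GUCY2C had differences from -1.85 to -1.24 at their brightest probes. The further probes of TCEA3 (0.06), THUMPD2 (-0.07) and USP43 (-0.69 and -0.13) overlapped between the groups, while that of LOC100138449 (-0.86) did not. All 12 passed the study's threshold with each follicle left out, as did 10 of the 12 higher genes. The exceptions were SLC39A8, lost without the growing follicle of pair 2, and CYP51A1, lost without the atretic follicle of pair 1 or 3 or the growing follicle of pair 1, 2 or 3.

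The smallest adjusted p among named genes, 0.125 in limma, belonged to CLTA and PRSS2. CLTA, a clathrin light chain named here after its values were seen, had 8 probes, all with a lower mean in the follicles with CYP17A1 signal, 6 past the study's threshold and 5 without overlap. At the probe with the smallest p it was 9.39, 9.15 and 9.22, against 10.18, 10.26, 10.35, 10.44 and 10.33, a difference of -1.06 ± 0.12 (SE). PRSS2, annotated as a trypsinogen, did not overlap at either of its 2 probes. At the brighter one it was 8.96, 9.45 and 8.86 in follicles with CYP17A1 signal and 7.64, 7.20, 7.50, 7.66 and 7.58 in the others, a difference of 1.57 ± 0.18 (SE). Trypsinogens have near-identical copies, and the files do not say which of them a probe binds.

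PRSS2 also had the highest Pearson correlation with CYP17A1 over the 8 follicles, 0.95. The next were CHCHD10 (a protein of the mitochondrial intermembrane space, 0.93), PSAT1 (0.93), PIGU (0.93), TRIT1 (a tRNA-modifying enzyme, 0.93) and SDHA (a subunit of succinate dehydrogenase, 0.93). These correlations are a description over 8 follicles hybridised in pairs, and since the CYP17A1 levels chose the groups, a gene that separates the groups has a high one by construction. CHCHD10 was 11.19, 11.08 and 10.59 in follicles with CYP17A1 signal, against 9.18, 9.32, 9.80, 9.68 and 9.27 in the others (2.84-fold; adjusted p = 0.288, limma).

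Cholesterol synthesis genes had higher means in the follicles with CYP17A1 signal in 18 of 20 cases (all genes, 50.1%), with a median difference of 0.80 (all genes, 0.00041). Of the 20, 3 passed the study's threshold, all upward. DHCR7, which makes cholesterol in the last step of a branch of the pathway, was 9.77, 10.07 and 9.67, against 7.73, 8.41, 8.49, 8.05 and 9.10, a difference of 1.48 ± 0.29 (SE; adjusted p = 0.883, limma), and passed with each follicle left out. CYP51A1, the lanosterol demethylase, was 14.63, 14.24 and 14.52, against 11.03, 12.92, 13.88, 12.23 and 14.20. EBP, a sterol isomerase, was 10.34, 10.06 and 10.73, against 8.79, 9.10, 9.04, 8.62 and 10.43. The growing follicle of pair 4 had high levels without CYP17A1 signal: in 16 of the 20 genes it exceeded the lowest follicle with signal, and it was the highest of the other 5 in 14. The mean level of the list was 10.95, 10.86 and 10.99 in follicles with CYP17A1 signal and 9.34, 10.18, 10.50, 9.59 and 10.93 in the others.

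**Figure D4:**
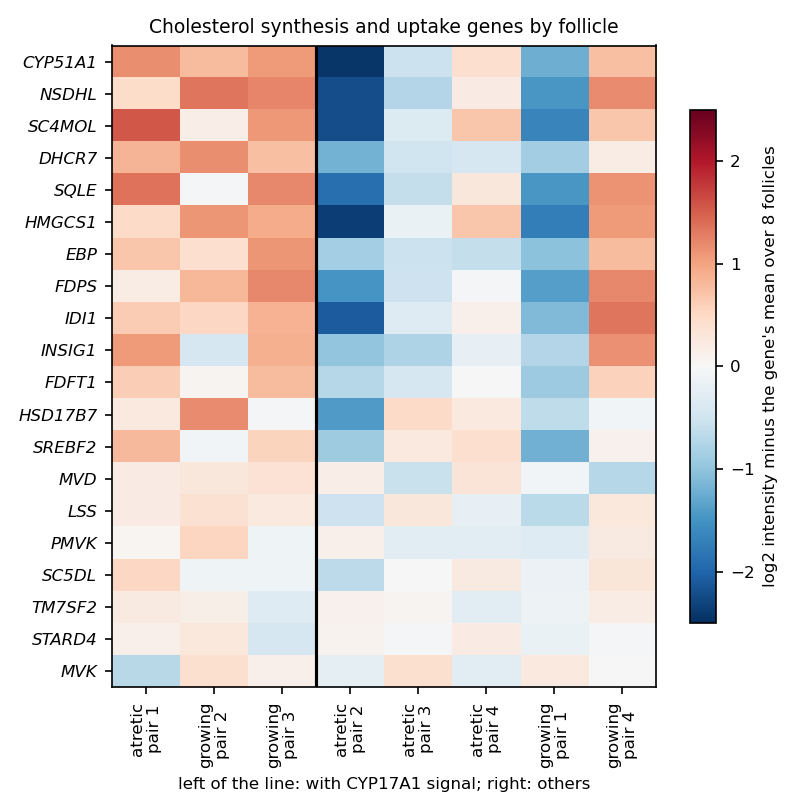
Log2 intensity of each of 20 genes of cholesterol synthesis and uptake (rows, ordered by difference) minus its mean over the 8 follicles, with the 3 follicles with CYP17A1 signal left of the line and the 5 others right of it. Red squares fill the upper rows of the growing follicle of pair 4 as well as those on the left, and the atretic follicle of pair 2 and the growing follicle of pair 1 are lowest in most of these rows.

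Granulosa and cycle genes divided the follicles in other ways. AMH, the hormone by which granulosa cells restrain follicle recruitment, was 12.35, 11.43 and 12.18 with CYP17A1 signal, against 9.41, 10.13, 10.98, 9.93 and 11.97, with the growing follicle of pair 4 above the growing follicle of pair 2. It was 2.84-fold higher in the mean (adjusted p = 0.889, limma), lost its call without the atretic follicle of pair 1 or the growing follicle of pair 1 or 3, and was the only 1 of 16 granulosa genes to pass. The inhibin subunit INHA was saturated on all 6 readings with CYP17A1 signal and on 1 of 10 without, so no fold is given (adjusted p = 0.92, limma). Mitosis genes had a higher mean in 25 of 27 cases (all genes, 50.1%) with a median difference of 0.60 (all genes, 0.00041), but none passed. In 26 of the 27 the growing follicles of pairs 3 and 4, 1 from each group, were the 2 highest of the 8. CCNB1 (cyclin B1) was 9.43, 10.41 and 13.00 with CYP17A1 signal and 7.69, 9.17, 10.08, 8.05 and 13.37 without. Of 21 DNA replication genes, RFC5, a clamp-loader subunit, alone passed, downward (adjusted p = 0.893, limma), while its 3 dimmer probes differed by -0.29 to -0.14. The median was -0.07.

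Some of the largest differences belonged to genes that split the follicles along another line. VNN1, an enzyme that cleaves pantetheine and releases cysteamine, was 10.20, 9.26 and 10.31 in follicles with CYP17A1 signal and 15.95, 15.96, 15.81, 15.96 and 9.10 in the others. The growing follicle of pair 4, without CYP17A1 signal, thus had the lowest VNN1 of all 8, and the remaining 4 others the highest. Those 4 were the atretic follicles of pairs 2, 3 and 4 and the growing follicle of pair 1. The VNN1 division thus followed the labelled phase in pairs 2 to 4 and ran against it in pair 1. NRP1, a co-receptor for vascular endothelial growth factor, was 11.78, 11.08 and 11.07, against 15.16, 15.41, 15.28, 15.62 and 10.59. ANGPT2, an angiopoietin, was 7.19, 7.58 and 6.86, against 13.51, 12.98, 10.88, 12.36 and 7.18, and ANK3 (an ankyrin) had the same order. Differences were -4.64 ± 1.55 for VNN1, -3.10 ± 1.09 for NRP1 and -4.17 ± 1.29 for ANGPT2 (SE), with adjusted p from 0.883 to 0.889 in limma. VNN1 lost the study's threshold without the growing follicle of pair 2, NRP1 without the growing follicle of pair 2 or 3, and ANK3 kept it only without the growing follicle of pair 4. These genes are on the list the study selected for qRT-PCR, on a basis not given in the sources used here, and its assays included these follicles, so the list is not treated as independent evidence. Of the 23 measured genes of that list, 1 passed upward and 4 downward, with a median difference of 0.19. Over all genes tested 2.43% passed upward and 2.48% downward. VNN1 was saturated on 4 of 10 readings without CYP17A1 signal, and ANGPT2 exceeded the negative controls on 4 of 6 readings with it. The differences given here for VNN1 and ANGPT2, also with a follicle left out, therefore show a direction and not an exact size. On the arrays with atretic follicles in Cy5, which share 1 slide and leave out the array on the third, VNN1 differed by -4.65 and NRP1 by -2.94. Pair 4, which holds no follicle with CYP17A1 signal, showed the same genes apart, with NRP1 higher by 4.69 in its atretic than in its growing follicle. For VNN1, saturated in part, and ANGPT2, near the limit in the growing follicle, the levels above give only the order. Among all 338 lower genes the growing follicle of pair 4 was the lowest of the other 5 in 65.7%, against 23.3% of all genes tested, and among the 331 higher genes it was the highest in 50.8%, against 22.3%. Without it, the groups by CYP17A1 are those by VNN1 among the 7 follicles left, and 8 named genes passed the adjusted threshold at some probe, all but LDHA at their brightest, with VNN1 (difference -6.00) and NRP1 (-4.06) among them. How much of the difference belongs to CYP17A1 and how much to the VNN1 division cannot be told apart for genes on which the growing follicle of pair 4 lies between the groups.

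**Figure D5:**
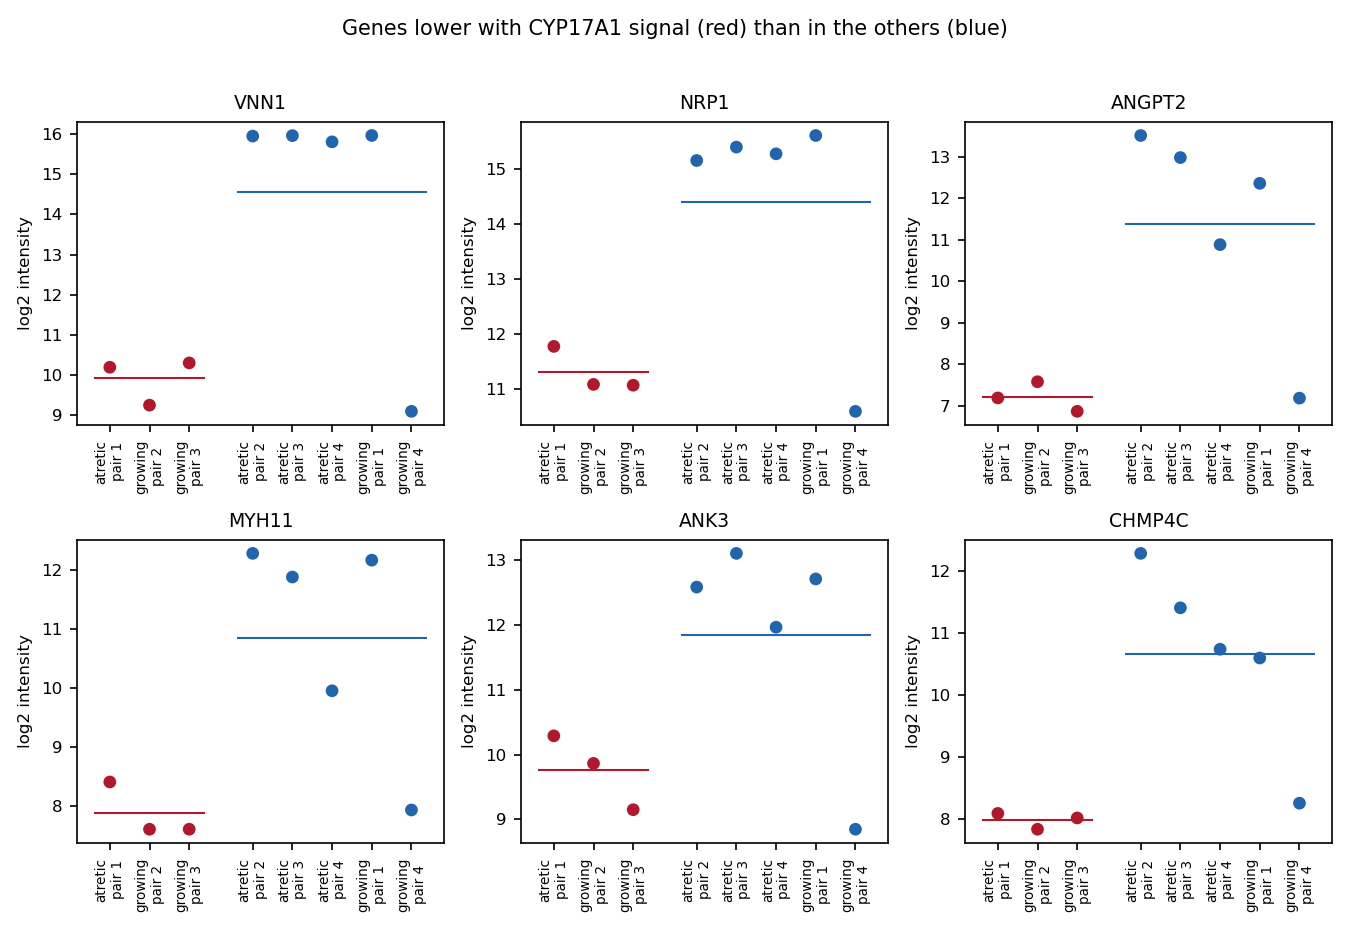
Normalised log2 intensity (vertical axes, a separate scale per gene) of VNN1, NRP1, ANGPT2, MYH11, ANK3 and CHMP4C by follicle, with red points and mean lines for the follicles with CYP17A1 signal and blue ones for the others. The growing follicle of pair 4, the rightmost point, lies at or near the level of the red points in all 6 genes, such as 9.10 for VNN1.

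Phase differed between the groups too, with 1 atretic and 2 growing follicles with CYP17A1 signal, against 3 atretic and 2 growing ones without. With phase as a covariate 318 genes were higher, 251 of them among the 331, and 256 were lower, 234 of them among the 338. The covariate was the labelled phase, which in pair 1 runs against the VNN1 division, so it does not adjust fully for that division.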

How the data were processed

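The authors deposited scanner intensity values of 8 arrays (median pixel of each spot and of its local background, linear, per channel) and processed log2 ratios of Cy5 over Cy3 made by background subtraction, loess and quantile normalisation. These ratios correlated at 0.9986 or more with ratios rebuilt from the intensities, with array medians of -0.02 to -0.01. Here intensities were corrected with normexp (offset 50) and normalised by loess within arrays (1426 control spots given no weight) and quantiles between arrays. The 2 arrays of a follicle share RNA and were averaged, so n = 3 and 5 follicles. The sources do not state which follicles shared a cow, and p-values therefore cover only how these 8 follicles vary. Probes averaging under 7 on the log2 scale were dropped, CYP17A1 was left out, and differences were tested two-sided with lmFit and eBayes of limma 3.58.1 in R 4.3.3, tested on simulated data. A gene was represented by its brightest probe, but counted as past the adjusted threshold if any of its probes was: of 43794 probes 21790 had 1 symbol. Negative control limits were the 95th percentile of 153 spots in each channel of an array. The number of arrays limits the precision.

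Genes named were LUM and COL1A2, (b) the 12 largest differences each way past the study's threshold that did not overlap and kept their sign within pairs 1 to 3, up to 4 genes of each list by p, the 6 most alike CYP17A1, marker genes of the cell types, VNN1, CYP19A1 and FSHR. Rule (b) also required the brighter group above the negative controls on every array. POSTN, PTGS2, HAS2, ANK3, CLTA, NR5A1, TYROBP, WT1 and LDHA were added after their values were seen. The members, lists and tests were chosen with earlier results of these data known. Alternatives covered background, normalisation, filter, probe choice, phase, pairing, dye orientation, trend, weights and leaving out each follicle.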

Additional observations from a re-analysis of the deposited data

Results flagged for a closer look

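Among the 5 follicles without CYP17A1 signal, the level of 1 follicle lay far from the other 4 for 7 of 99 named genes, by Dixon's criterion, which chance meets in about 1 of 20 groups. For 4 of the 7 genes this was the growing follicle of pair 4. It had VNN1 at 9.10 where the nearest other follicle had 15.81, and NRP1 at 10.59 where the nearest had 15.16. EBP was 10.43 there, above 9.10 in the nearest follicle, and the oestrogen receptor ESR2 was 8.22, above 7.63. The atretic follicle of pair 4 stood apart for BMP4, at 8.72 with the nearest at 7.83, and for MMP2, at 6.95 with the nearest at 7.14, where levels were near the negative control limit. TRIT1 was 8.74 in the atretic follicle of pair 2, with the nearest at 8.99.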

How the results depend on the processing

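Under 24 alternatives no named gene that passed the study's threshold changed sign. The counts moved most with the pairing. Likeness within pairs was weak and uneven: deviations from the group means correlated at -0.05, 0.25, -0.06 and 0.10 in pairs 1 to 4. The main fit leaves the pairing out, although the follicles of a pair share their arrays. With the pair number as a fixed replicate block 842 genes were higher and 835 lower, no probe passed the adjusted threshold and LUM passed the study's threshold at 1.90. With it as a random replicate block (correlation 0.20) 498 were higher and 522 lower, with LUM at 1.58. Within-array ratios of pairs 1 to 3 against 0 gave 832 higher, 851 lower, no probe, LUM past the threshold at 1.90 and COL1A2 not past it at 1.95, and the deposited ratios 735, 768, no probe, 1.80 and 1.79. Median centring without loess gave 529 higher and 150 lower genes. COL1A2 fell short of the threshold with phase as a covariate (1.35) and with follicle weights (1.27). The 1 probe past the adjusted threshold was lost (0 probes) with plain subtraction, no background correction, phase as a covariate and only those arrays that carried growing follicles in Cy5. An intensity trend gave 2 probes and 1 gene (PRSS2, at its dimmer probe only). With 1 follicle left out, 0 to 11 probes and 0 to 8 genes passed the adjusted threshold at any probe, 251 to 593 genes were higher and 225 to 681 lower, LUM ranged from 1.08 to 2.14 and COL1A2 from 0.77 to 2.30. The cause of these changes was not tested. The stromal median stayed between 0.13 and 0.37. Of 13 endothelial genes 1, and of 14 leukocyte genes 0, exceeded the negative control limit on all readings, and differences below that limit may not be detectable.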
